A study of Mus musculus with 18 samples.

Results

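The Zfp genes of the mouse encode zinc finger proteins, most of them with arrays of the C2H2 type that read DNA. The genes described here are those of the deposited table with a symbol made of Zfp and a number, leaving out Zfp36 and Zfp423, that reached 5 CPM (reads counted for a gene, scaled to a common library total) in at least 3 of the 18 samples. 262 of 329 Zfp genes met this rule, out of 20295 genes listed, while 65 stayed under the threshold and the other two are those left out by name. As the rule used the measured level, that these genes are expressed is no finding. Just inside it lay Zfp462, Zfp791 and Zfp786, with 5.03, 5.26 and 5.31 CPM in the sample that ranked 3 by level, and just outside lay Zfp428, Zfp641 and Zfp764 with 4.72, 4.38 and 4.36 CPM. All 262 were counted in every library, 215 of them at 5 CPM or more in all 18 samples, and all passed the low-count filter of the test, which left 12156 genes.

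The samples were wild-type BAT-LgT cells, 1 line of mouse brown preadipocytes immortalised with SV40 large T antigen, which had been differentiated to brown adipocytes and were used on day 7. They received for 3 h either Vehicle (DMSO), 100 nM isoproterenol (ISO), an agonist of all β-adrenergic receptors, or SR-3420 (10 µM per the labels, while the text of the study gives another dose), a ligand that frees ABHD5 from perilipin so that it activates the triglyceride lipase ATGL without a receptor signal. The 3 treatments were given alone or after 1 h with inhibitors of ATGL and of hormone-sensitive lipase (Lipase Inh.), which makes 6 groups of 3 samples. As the cells are cultured and immortalised, the groups stand for an acute response of 1 line and not for a tissue. Of the adipocyte markers checked, brown ones among them, 10 of 11 were detected above the filter, Dio2 being the exception (0 to 0.416 CPM). Over the samples Ucp1 ran from 1.39 to 788 CPM, Adipoq from 2414 to 4024 and Fabp4 from 2258 to 4450. The summed level of the 11 was 9247 ± 637 CPM with Vehicle and 12420 ± 691 CPM with ISO (SD, n = 3). This difference was not tested for a part in the results below. Fibroblast markers passed in 5 of 5 cases (sum of 146 to 250.1 CPM), and macrophage and endothelial markers in none of 5 and none of 4 (sums of at most 6.29 and 0.630 CPM, Ptprc at 0). In RNA from whole cultures, a lower level per cell and fewer cells that express a gene cannot be told apart.

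Library totals ran from 10310447 to 21205032 counts in 17 libraries. The library Lipase Inh. + SR-3420 replicate 2 stood apart with 4263755 counts, of which the gene Lars2 took 18.3% (0.0397% to 0.121% elsewhere), so counts and changes that rest on it are given with and without it for the members the text describes most fully. Replicates differed by more than sampling noise in every pair, and p-values measure the spread between these samples, which the study describes as independent experiments.

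C2H2 zinc fingers each contact a few bases, and arrays of them let a protein bind a long, specific DNA sequence. Many mammalian members also carry a KRAB box, which recruits the corepressor Trim28 and with it the histone methyltransferase Setdb1, so that bound loci, largely transposable elements, are packed into heterochromatin. KRAB genes multiplied by tandem duplication and lie in clusters on a few chromosomes. In adipocytes single members have described roles: Zfp516 is induced by cold and β-adrenergic signals and activates Ucp1, while Zfp521 holds progenitors back from adipogenesis. In brown adipocytes β-adrenergic signals raise cAMP, which acts on transcription through CREB and at the same time starts lipolysis, and lipase inhibitors were used to separate these effects.

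The expressed Zfp genes were a low-level group with a few abundant members. Levels are given as CPM of libraries scaled by TMM factors. Over all samples the median member lay at 23.9 CPM (quartiles 11.6 and 49.6, range 3.78 to 541). Per kilobase of counted length, the median member had 7.17 CPM per kb against 11.2 over all 12156 genes tested. By the same measure the highest were Zfp91, a ubiquitin ligase (156 CPM per kb), Zfp655 (107 CPM per kb) and Zfp664 (88.2 CPM per kb). Summed over members, the level was 10729 ± 555 CPM with Vehicle, 12575 ± 189 with ISO and 12900 ± 533 with SR-3420, and 11024 ± 231, 12919 ± 274 and 11727 ± 249 CPM in the same treatments after inhibitors (SD, n = 3). As a share of the raw counts the same sum was 1.19% ± 0.0615, 1.13% ± 0.0269 and 1.28% ± 0.0520 without inhibitors. The sum with ISO was thus above that with Vehicle on TMM-scaled CPM and below it as a share of counts.

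Translated GENCODE transcripts of the same genome build (mm9) gave a protein for 258 members. A pattern for the C2H2 finger occurred at least once in 251 of them, with a median of 11 fingers and up to 36 in Zfp142. A KRAB pattern was found in 136 proteins and not in 122. Such a pattern can miss a KRAB box, so the 122 may include KRAB genes. KRAB members had a median of 12 fingers against 7.5 for the others, and a lower median level, 5.06 against 11.2 CPM per kb (136 and 122 members). Some members resemble each other so closely that reads can be assigned to the wrong copy: 41 shared over 1% and 11 over 10% of the 50-base words of their coding sequence with another Zfp gene.

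Zfp948, from a cluster on chromosome 17 (chr17:21704010-21725649), was the member that SR-3420 raised most by the naming rule. It lay at 20.3, 24.7 and 25.1 CPM in the 3 Vehicle samples, at 65.8, 72.5 and 68.5 with ISO and at 104, 81.8 and 90.1 with SR-3420. After inhibitors the values were 25.4, 25.6 and 32.98 CPM with Vehicle, 44.1, 43.6 and 49.9 with ISO and 26.2, 23.7 and 32.4 with SR-3420. Every sample treated with ISO or SR-3420 alone thus lay above all others, those with inhibitors and ISO were in between, and those with inhibitors and SR-3420 overlapped with both Vehicle groups. The log2 fold change was 1.56 ± 0.12 (SE, adjusted p = 5.6e-10) with ISO and 1.98 ± 0.12 (SE, adjusted p = 1.83e-11) with SR-3420. After inhibitors it was 0.71 ± 0.12 (SE, adjusted p = 2.85e-05) with ISO and 0.00 ± 0.13 (SE, adjusted p = 0.996) with SR-3420. The interaction, which subtracts the change without inhibitors from that with them, was -0.86 ± 0.17 (SE, adjusted p = 0.000497) for ISO and -1.98 ± 0.17 (SE, adjusted p = 4.58e-08) for SR-3420. Without the shallow library the SR-3420 values were 0.07 under inhibitors and -1.91 for the interaction.

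Zfp655 (chr5:145992628-146008175), the second most abundant member per length, also rose with both treatments. It was found at 191, 231 and 248 CPM with Vehicle, 663, 732 and 641 with ISO and 837, 761 and 784 with SR-3420. The inhibited samples held 249, 230.3 and 267 CPM with Vehicle, 349, 334 and 329.8 with ISO and 296, 325 and 355 with SR-3420. Both treatments alone gave values beyond every other sample, and after inhibitors the treated samples still lay above those with inhibitors and Vehicle. The log2 fold changes were 1.60 ± 0.09 (ISO) and 1.83 ± 0.09 (SR-3420) without inhibitors, and 0.44 ± 0.09 (SE, adjusted p = 0.000174) and 0.39 ± 0.09 (SE, adjusted p = 0.0107) with them. The interactions were -1.17 ± 0.12 (SE, adjusted p = 1.99e-07) and -1.44 ± 0.12 (SE, adjusted p = 3.02e-08). Leaving out the shallow library gave 0.39 and -1.44 for SR-3420.

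Zfp52, the neighbour of Zfp948 (chr17:21672503-21699565), and Zfp516 rose with ISO in the absence and in the presence of inhibitors. Zfp52 was scarce in Vehicle samples (2.84, 3.94 and 4.32 CPM) and reached 23.2, 29.4 and 23.5 CPM with ISO but 11.2, 8.83 and 8.12 CPM with SR-3420. With inhibitors it lay at 5.68, 3.54 and 5.14 CPM (Vehicle), 34.02, 28.3 and 35.6 (ISO) and 3.24, 4.53 and 4.51 (SR-3420). The groups of ISO, SR-3420 and Vehicle did not overlap without inhibitors, while with inhibitors only ISO stood clear of Vehicle. Its log2 fold change with ISO was 2.80 ± 0.19 (SE, adjusted p = 4.73e-11) without and 2.76 ± 0.17 (SE, adjusted p = 1.17e-11) with inhibitors, and the difference was -0.04 ± 0.26 (SE, adjusted p = 0.93). For SR-3420 the change was 1.36 ± 0.20 without and -0.26 ± 0.22 with inhibitors, an interaction of -1.61 ± 0.30 (SE, adjusted p = 0.00036). These were -0.29 and -1.65 without the shallow library.

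Zfp516 was measured at 80.8, 84.4 and 91.4 CPM with Vehicle, 368, 338 and 381 with ISO and 170.5, 159 and 171 with SR-3420. Under inhibitors the values were 88.4, 83.9 and 92.9 CPM with Vehicle, 335, 357 and 305 with ISO and 97.3, 91.1 and 86.9 with SR-3420. ISO samples were far above all samples without ISO in both settings, and SR-3420 samples were apart from Vehicle only without inhibitors. The log2 fold change with ISO was 2.08 ± 0.07 (SE, adjusted p = 1.74e-15), and 1.91 ± 0.07 (SE, adjusted p = 4.7e-15) with inhibitors, with an interaction of -0.18 ± 0.10 (SE, adjusted p = 0.202). SR-3420 raised it by 0.97 ± 0.07, and its interaction was -0.91 ± 0.10 (SE, adjusted p = 1.61e-06), or -0.91 without the shallow library.

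**Figure D1:**
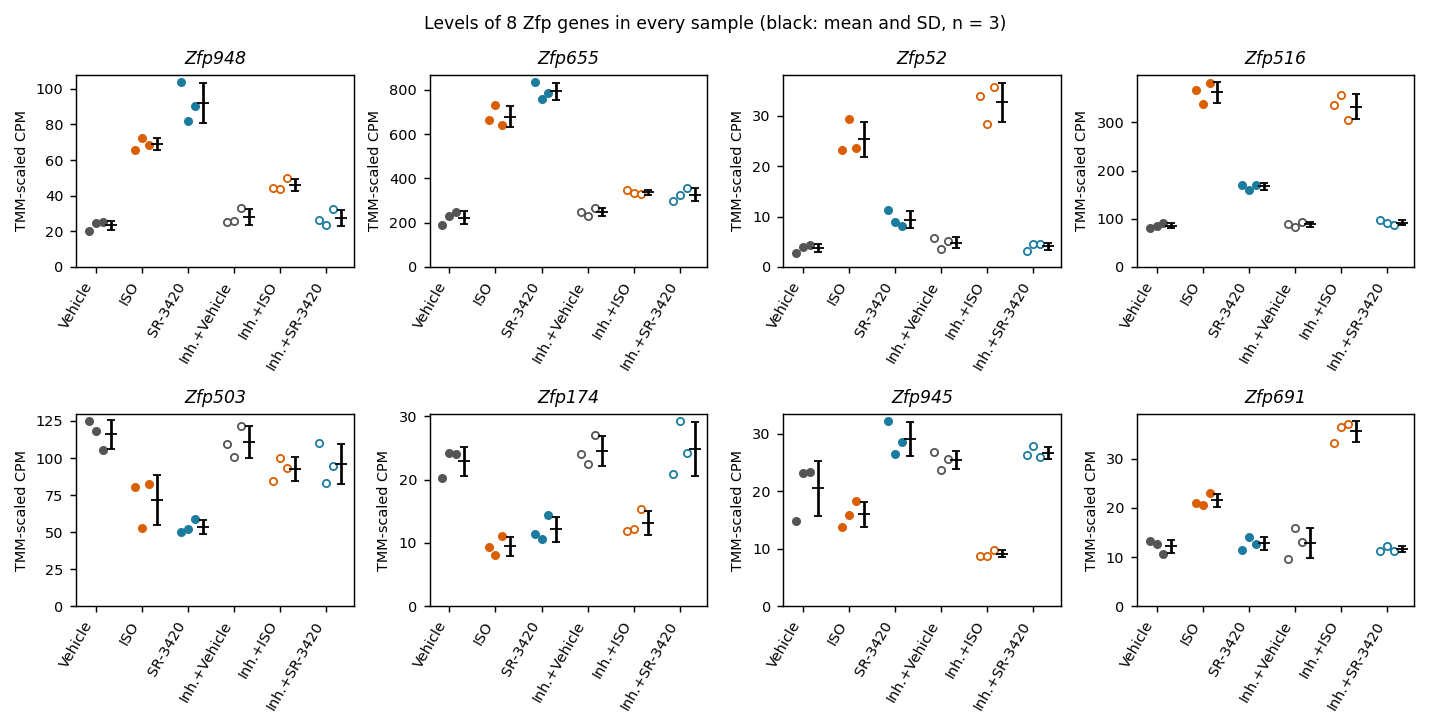
Level of 8 members in the 18 samples, as TMM-scaled CPM on linear axes that differ between panels. Points are samples, and black marks give the mean and SD of 3 replicates in each of the 6 groups. Zfp948 and Zfp655 are high with ISO or SR-3420 alone, while Zfp52 and Zfp516 stay high with ISO after inhibitors and Zfp945 is lowest there.

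Short CRE cores, the letters bound by CREB and related factors, occur upstream of some raised and some lowered members. They are shown because ISO acts through cAMP. The genes shown are Zfp948, Zfp655, Zfp593 and Zfp143, raised on the TMM scale, and Zfp94 and Zfp688, which ISO lowered. For Zfp593 and Zfp143 the call with ISO depends on the scaling. On total counts their log2 fold changes with ISO were 0.30 and 0.15, and neither was called. The call of Zfp593 was also lost without ISO replicate 2 or without Vehicle replicate 2. In the stretches below, read from the mm9 genome 5′ to 3′ on the strand of the gene, capitals mark the core TGACG in either orientation, or the palindrome TGACGTCA that contains it.
Zfp948 (chr17:21703921-21703965, plus strand): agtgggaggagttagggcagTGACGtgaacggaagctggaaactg
Zfp655 (chr5:145992469-145992620, plus strand): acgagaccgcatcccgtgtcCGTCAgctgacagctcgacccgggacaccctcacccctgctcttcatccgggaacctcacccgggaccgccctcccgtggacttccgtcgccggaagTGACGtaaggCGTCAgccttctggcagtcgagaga
Zfp593 (chr4:133801539-133801586, minus strand): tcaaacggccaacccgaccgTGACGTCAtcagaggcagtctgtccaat
Zfp143 (chr7:117205041-117205173, plus strand): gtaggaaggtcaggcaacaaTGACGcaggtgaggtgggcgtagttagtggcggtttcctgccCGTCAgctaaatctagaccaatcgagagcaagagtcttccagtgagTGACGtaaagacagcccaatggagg
Zfp94 (chr7:25101770-25101814, minus strand): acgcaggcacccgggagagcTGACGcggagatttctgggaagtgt
Zfp688 (chr7:134565763-134565798, minus strand): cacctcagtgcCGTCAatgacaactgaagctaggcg
Counting back from the annotated start, where the last base before the gene is -1, Zfp948 had 1 core at -69, Zfp655 had 3 at -139, -42 and -32, Zfp593 had the palindrome at -60, and Zfp143 had 3 cores at -155, -113 and -67. Zfp94 had a core at -109 and Zfp688 at -239. The strongly raised Zfp52 and Zfp691 had none in this window, while Zfp651, which fell, and Zfp235 had cores. These letters were not more frequent upstream of the members as a whole. In the 250 bases before the start, searched on both strands, TGACG occurred in 27.1% of 262 members and 27.3% of all 12156 genes tested, and TGACGTCA in 2.67% and 2.84%. TGACG was held by 23.7% of the 76 members higher with ISO and 30.1% of the 83 lower with it, and by 28.6% of the 98 higher with SR-3420 and 30.4% of the 46 lower with it. These shares lay around the 27.3% of all genes, and the differences between raised and lowered members were not tested. The C/EBP-ATF element TGATGNAA was found upstream of 0.763% of members and 1.76% of all genes. A match is a description of letters and no evidence of binding.

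ISO against Vehicle gives the effect of β-adrenergic stimulation on the group. In edgeR's quasi-likelihood test with Benjamini-Hochberg adjustment across the 12156 genes, 76 of 262 members were higher (29.0%, against 26.8% of all genes) and 83 were lower (31.7%, against 25%) at an adjusted p of at most 0.05. Members had to reach 5 CPM in 3 samples, and of the 10403 tested genes that do so 29.9% were higher and 26.8% lower. The share of members higher was thus close to theirs. Of the members at 5 CPM or more in all 18 samples, 33.0% were higher and 29.3% lower. Changes of at least 2-fold were few, with 6 members higher and 7 lower, beside 5.03% and 4.07% of all genes. The level rule can admit a member through the samples where it is high, so these lists depend in part on the rule. Of the 215 members at 5 CPM or more in all 18 samples, 4 were higher and 2 lower past 2-fold. The median log2 fold change was -0.07 over members and -0.02 over all genes. These directions hold on the TMM scale. With scaling by total counts the median of all genes was -0.33 and that of the members -0.37, and 25 members were higher and 142 lower. By the naming rule Zfp52, Zfp516, Zfp655 and Zfp948 rose most.

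Among those that fell with ISO, Zfp362 had 26.8, 29.1 and 24.6 CPM with Vehicle and 10.96, 11.6 and 9.45 with ISO, and Zfp174, a repressor with a SCAN domain, had 20.3, 24.3 and 24.1 CPM with Vehicle and 9.30, 8.06 and 11.03 with ISO. In both genes every ISO sample was below every Vehicle sample. The log2 fold changes were -1.33 ± 0.11 (SE, adjusted p = 2.67e-09) and -1.28 ± 0.15 (SE, adjusted p = 3.56e-07). Zfp688 went from 11.6 ± 1.82 to 5.64 ± 1.25 CPM (SD, n = 3), a change of -1.08 ± 0.20, and Zfp94 from 11.8 ± 2.16 to 5.78 ± 0.644 CPM, a change of -1.04 ± 0.17. The remaining 2-fold changes, listed after their values were seen, were Zfp462 (1.08) and Zfp770 (1.05) upwards, and Zfp112 (-1.27), Zfp521 (-1.27) and Zfp128 (-1.04) downwards.

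SR-3420 against Vehicle shows the response to lipolysis without the receptor. Here 98 members were higher (37.4%, against 26% of all genes) and 46 lower (17.6%, against 25.4%), and past 2-fold 10 were higher and 1 lower, beside 3.97% and 2.37% of all genes. Of the 215 members at 5 CPM or more in all 18 samples, 6 were higher and 1 lower past 2-fold. Of the 10403 genes at the members' level threshold 29.0% were higher and 27.8% lower. The median change was 0.11 over members and -0.02 over all genes. Its sign depends on the scaling, since on total counts the medians were -0.05 and -0.18, with 55 members higher and 68 lower. The distance between members and all genes was 0.13 on either scale. Library scaling moves all genes by nearly the same amount, so this equality is no check of the result. After Zfp948, Zfp655 and Zfp52, the naming rule gives Zfp51, from the same cluster as Zfp948, with 12.4, 17.5 and 20.3 CPM in Vehicle and 41.5, 28.7 and 42.9 CPM in SR-3420 samples. These groups did not overlap, and the change was 1.19 ± 0.19 (SE, adjusted p = 2.01e-05).

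Other members past 2-fold, named after their values were seen, were Zfp608 (1.38), Zfp800 (1.19), Zfp462 (1.11), Zfp202 (1.09), which represses genes of lipid metabolism, Zfp939 (1.05) and Zfp593 (1.06 ± 0.19), a factor in the assembly of the large ribosomal subunit. Zfp593 had 12.4, 7.49 and 9.26 CPM with Vehicle and 18.9, 25.9 and 16.9 with SR-3420, again without overlap. The only 2-fold decrease was that of Zfp503, of the NET family of zinc finger corepressors, which lay at 125, 118 and 105 CPM with Vehicle, 50.2, 51.9 and 59.1 with SR-3420 and 110.2, 83.1 and 94.5 with inhibitors and SR-3420. Samples with SR-3420 alone were below all others of these groups. The change was -1.11 ± 0.13 (SE, adjusted p = 4.42e-07). Zfp324 (-0.99 ± 0.13), Zfp174 (-0.90 ± 0.14) and Zfp784 (-0.87 ± 0.12) followed.

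**Figure D2:**
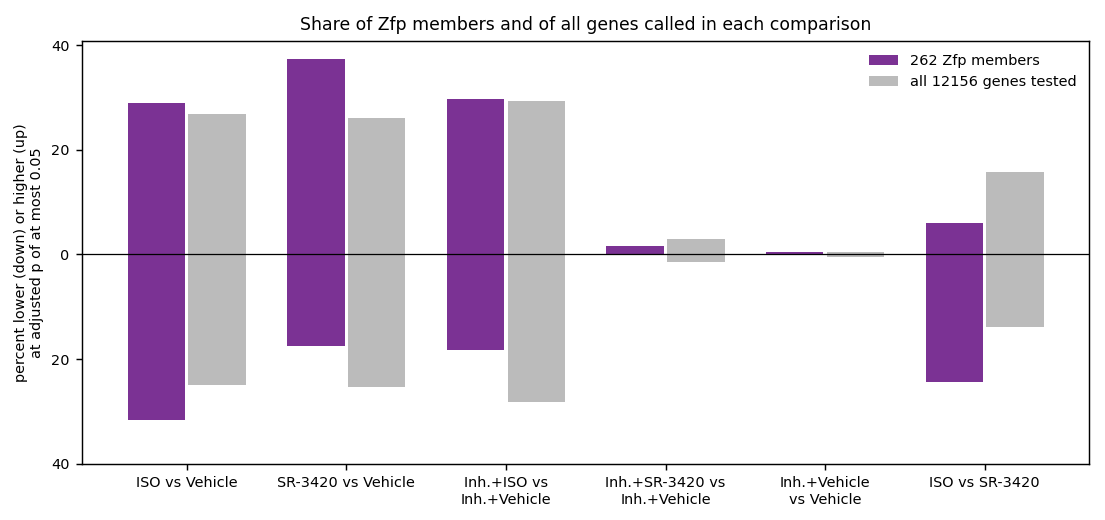
Percent of the 262 members and of all 12156 genes tested that were called higher (bars upwards) or lower (bars downwards) at an adjusted p of at most 0.05 in 6 comparisons. For SR-3420 the members reach 37.4% higher and 17.6% lower, against 26% and 25.4% of all genes. With inhibitors and SR-3420 the shares are 1.53% and 2.99% higher.

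**Figure D3:**
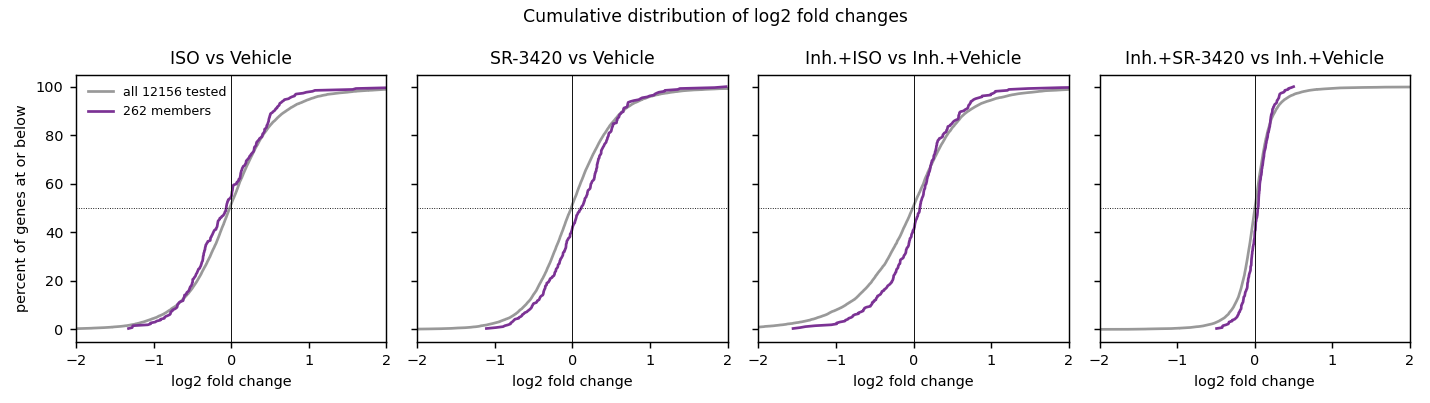
Cumulative share of genes by log2 fold change for members and for all genes tested, in ISO and SR-3420 against Vehicle, without and with inhibitors. The curve of the members for SR-3420 without inhibitors is shifted towards higher values (median 0.11 against -0.02), and with inhibitors the curves for SR-3420 are narrow around 0.

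The inhibitors alone changed 1 member by edgeR's test. Zfp329 rose from 20.6 ± 2.32 to 28.00 ± 1.39 CPM (SD, n = 3), a change of 0.44 ± 0.10 (SE, adjusted p = 0.025), and no member fell. Of all genes 0.485% were higher and 0.428% lower. At an unadjusted p under 0.05, 20 members were higher and 3 lower, and DESeq2 called 1 and 0. The call of Zfp329 was lost without Vehicle replicate 1, Lipase Inh. + Vehicle replicate 1 or Lipase Inh. + Vehicle replicate 2.

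With inhibitors present, SR-3420 raised 4 members (1.53%, against 2.99% of all genes) and lowered none (against 1.36%) by edgeR's test. At an unadjusted p under 0.05 there were 29 and 5, and DESeq2 called 5 and 0. The 4 were Zfp292 (0.47, adjusted p = 0.0132), Zfp655 (0.39), Zfp386 (0.39, adjusted p = 0.0304) and Zfp740 (0.32, adjusted p = 0.0248). Without the shallow library, 2 members (Zfp292 and Zfp655) were higher and none lower, beside 2.10% and 0.874% of all genes. The count was 2 without Lipase Inh. + Vehicle replicate 1, 1 without Lipase Inh. + Vehicle replicate 2 or Lipase Inh. + SR-3420 replicate 3, and 7 without Lipase Inh. + SR-3420 replicate 1, so that calls here hang on single libraries. Of the 98 members that SR-3420 raised alone, 3 were also called with inhibitors (3.06%), as were 8.97% of such genes overall. Without the shallow library these were 2 of 98 (2.04%) and 6.65%. These comparisons share no samples.

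ISO remained active on the members under inhibitors. Against inhibitors with Vehicle, 78 members were higher (29.8%, against 29.4% of all genes) and 48 lower (18.3%, against 28.3%), and past 2-fold 8 were higher and 5 lower, beside 5.43% and 7.63%. Of the 215 members at 5 CPM or more in all 18 samples, 7 were higher and 3 lower past 2-fold. Of the genes at the same level threshold 32.7% were higher and 29.4% lower. The median change was 0.08 over members and -0.01 over all genes, but -0.14 and -0.24 when scaled by total counts, with 35 members higher and 87 lower. Of the 76 members raised by ISO alone, 48 were raised here too (63.2% of those and 61.5% of the 78), near the 65.7% and 59.9% over all genes. Of the 83 that fell with ISO alone, 32 fell here (38.6% of those and 66.7% of the 48), where all genes gave 60.7% and 53.6%, and 3 were higher. Across the 262 members, log2 fold changes with and without inhibitors had a Pearson correlation of 0.70 for ISO and 0.34 for SR-3420 (0.61 and 0.32 over all genes). Genes are not independent replicates. The correlation for SR-3420 without the shallow library was 0.31 over members and over all genes.

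Zfp691 lay at 9.69, 15.8 and 13.00 CPM with inhibitors and Vehicle and at 33.1, 36.5 and 37.04 with inhibitors and ISO, against 13.3, 12.6 and 10.6 CPM with Vehicle alone and 21.02, 20.6 and 23.00 with ISO alone. It was above Vehicle in all ISO samples, and highest under inhibitors, with changes of 1.48 ± 0.13 (SE, adjusted p = 2.96e-09) with and 0.82 ± 0.14 (SE, adjusted p = 3.2e-05) without inhibitors. Zfp143, an activator bound at many promoters, had 11.5, 12.8 and 14.4 CPM with inhibitors and Vehicle and 31.2, 32.03 and 28.1 with inhibitors and ISO. The groups were apart, and the change was 1.23 ± 0.11 (SE, adjusted p = 3.08e-09). Zfp945, of the Zfp948 cluster, moved the other way. It was at 26.8, 23.7 and 25.6 CPM with inhibitors and Vehicle and 8.82, 8.78 and 9.88 with inhibitors and ISO, the lowest 3 values of the series, a change of -1.46 ± 0.15 (SE, adjusted p = 2.31e-08). Zfp651 (-1.27 ± 0.10), Zfp362 (-1.06 ± 0.11) and Zfp704 (-0.99 ± 0.10) also fell.

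Whether the inhibitors changed a response was tested as an interaction. For ISO, 49 members had a positive interaction (18.7%, against 14.9% of all genes) and 21 a negative one (8.02%, against 16.6%), of which 3 and 3 passed 2-fold (2.18% and 4.71% of all genes). At the members' level threshold 16.8% of genes were positive and 18.4% negative. The median was 0.11 over members and 0.01 over all genes, and on total counts 59 were positive and 11 negative. For SR-3420, 26 were positive (9.92%, against 12.5%) and 41 negative (15.6%, against 14.8%), of which 0 and 7 passed 2-fold (1.4% and 2.42%), and at that threshold 14.0% and 16.9% of genes were called. Here the median was -0.07 over members and 0.01 over all genes, and on total counts 28 were positive and 27 negative. Past 2-fold, the 215 members at 5 CPM or more in all 18 samples gave 1 and 2 for ISO and 0 and 4 for SR-3420. Without the shallow library the SR-3420 counts were 28 and 44, with 11.4% and 13.8% of all genes. The 7 members past 2-fold were Zfp948, Zfp52, Zfp655 and Zfp593 by the naming rule, and Zfp462 (-1.52), Zfp608 (-1.48) and Zfp800 (-1.01), which were picked once values were known. With the shallow library left out, Zfp593 had -1.22, Zfp462 -1.59, Zfp608 -1.51 and Zfp800 -0.99.

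**Figure D4:**
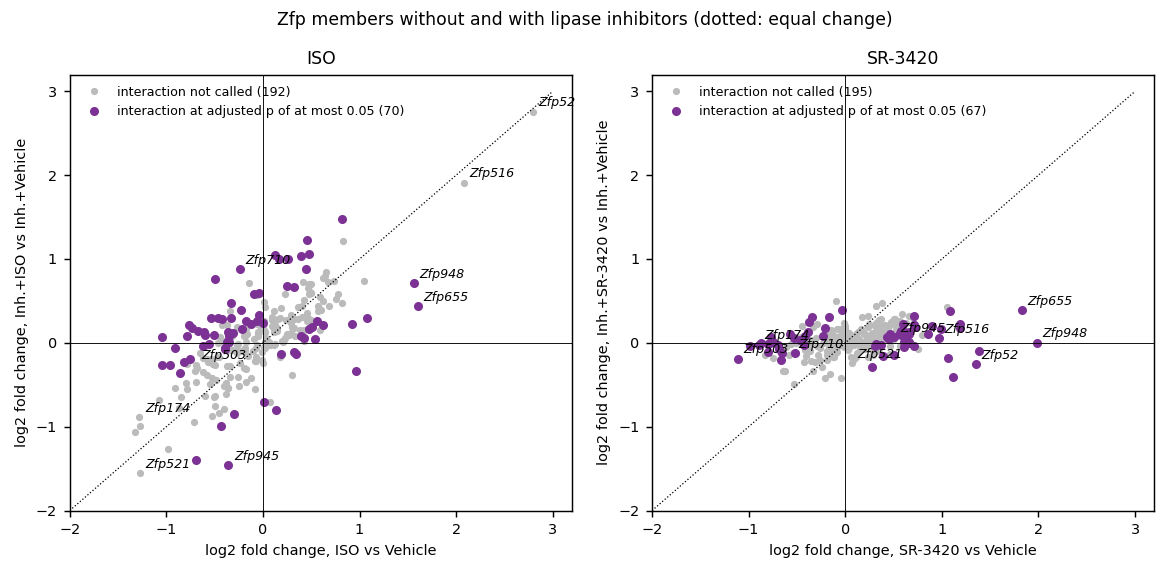
Log2 fold change of each of the 262 members with inhibitors (vertical axis) against that without (horizontal axis), for ISO and for SR-3420. Purple points are members with an interaction called at an adjusted p of at most 0.05 (70 for ISO, 67 for SR-3420). ISO changes lie along the diagonal for members such as Zfp52 and Zfp516, and SR-3420 changes lie close to 0 on the vertical axis.

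Zfp710 had the highest positive ISO interaction by the naming rule. It had 23.4, 23.8 and 20.99 CPM with Vehicle and 19.5, 20.1 and 18.1 with ISO, but 17.3, 19.9 and 18.4 CPM with inhibitors and Vehicle and 32.7, 36.3 and 33.4 with inhibitors and ISO. ISO samples lay below all Vehicle samples without inhibitors and above them with inhibitors. The changes were -0.24 (adjusted p = 0.0645), which was not called, and 0.88 (adjusted p = 2.41e-07), and the interaction was 1.12 ± 0.15 (SE, adjusted p = 5.06e-06). Zfp324 was lowered by ISO alone, from 21.7, 25.6 and 21.8 CPM with Vehicle to 11.7, 15.4 and 13.8 CPM, without overlap. Its change was not called with inhibitors, where it had 23.2, 26.9 and 25.4 CPM with Vehicle and 27.4, 31.9 and 28.5 with ISO. It had the largest positive SR-3420 interaction by the naming rule as well, 0.95 ± 0.18 (0.89 without the shallow library), beside 0.98 ± 0.18 for ISO. Zfp30, a KRAB protein that acts with Trim28 in adipogenesis, and Zfp235 had ISO interactions of 0.92 ± 0.20 and 0.91 ± 0.24. On the negative side stood Zfp655, Zfp945, Zfp948 and Zfp934 (-0.94 ± 0.27), the last with 54.8% of its 50-base words shared with another Zfp gene, so that its counts are uncertain.

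ISO and SR-3420 were also compared directly. With ISO 16 members were higher than with SR-3420 (6.11%, against 15.8% of all genes) and 64 lower (24.4%, against 13.9%), and past 2-fold 2 and 1, beside 1.23% and 0.814% of all genes. Of the 215 members at 5 CPM or more in all 18 samples, 1 was higher and 0 lower past 2-fold. At the members' level threshold 17.9% of genes were higher and 15.5% lower. The median difference was -0.18 over members and -0.01 over all genes, and on total counts, with 8 higher and 127 lower, -0.33 and -0.16. The count of lower members was 42 without ISO replicate 1, 41 without ISO replicate 2 and 41 without SR-3420 replicate 3. Higher with ISO were Zfp52 (1.44 ± 0.16), Zfp516 (1.12 ± 0.07), Zfp30 (0.82 ± 0.15) and Zfp691 (0.75 ± 0.13). The 1 member past 2-fold lower was the scarce Zfp521, -1.34 ± 0.21, which the naming rule takes only through the adipocyte list. Lower by size under the naming rule were Zfp945 (-0.88 ± 0.14), Zfp808 (-0.71 ± 0.20), Zfp946 (-0.70 ± 0.19) and Zfp708 (-0.69 ± 0.20). Zfp808 shares 36.4% of its words with another Zfp gene and Zfp708 overlaps Rslcan18 on the same strand, which leaves their counts uncertain.

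The position of members along the chromosomes was no part of the rule. Zfp genes at most 500 kb apart, with at least 5 members, formed 12 clusters that held 109 members, and 76 of the 106 with a protein had a KRAB pattern. In the clusters ISO raised 20 members (18.3%) and lowered 42 (38.5%), while of the 153 others it raised 56 (36.6%) and lowered 41 (26.8%), beside 26.8% and 25% of all genes. On total counts these were 8 and 71 in the clusters and 17 and 71 outside. SR-3420 raised 34 and lowered 26 in the clusters and raised 64 and lowered 20 outside (15 and 39, and 40 and 29, on total counts), beside 26% and 25.4% of all genes. The ISO interaction was positive for 28 and negative for 2 members in clusters, and positive for 21 and negative for 19 outside, beside 14.9% and 16.6% of all genes. These counts describe the groups, and their difference was not tested.

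Clusters are described singly and were chosen after their values were seen. That of Zfp948 was taken for this gene, which was itself named with earlier results of these data known. Its counts are therefore not those of an unselected cluster. In that of Zfp948 (chr17:21145905-23736454, 19 members) SR-3420 raised 11 members and lowered none, with a median change of 0.42, beside 26% and 25.4% of all genes, and 8 and 1 on total counts (median 0.26). The 11 were Zfp160 (0.57), Zfp51, Zfp53 (0.39), Zfp52, Zfp948, Zfp760 (0.58), Zfp820 (0.66), Zfp942 (0.58), Zfp944 (0.42), Zfp758 (0.52) and Zfp945 (0.52). Of these, Zfp52 and Zfp820 reached 5 CPM in only 11 and 7 of the 18 samples. The level rule may have admitted them through the samples where they are high. Negative SR-3420 interactions were called for 6 of the 19 members and positive ones for none, beside 14.8% and 12.5% of all genes. ISO raised 7 and lowered 3 members there (3 and 8 on total counts). In a cluster at chr7:13000497-13571065 ISO lowered 5 of 7 members and SR-3420 also 5, and in another at chr7:24866916-26012524 they lowered 6 and 5 of 9. Over all genes ISO lowered 25% and SR-3420 25.4%, and the 2 clusters were picked for these counts. A cluster of 13 members at chr7:30553571-30954746, which includes Zfp30, had 3 raised and none lowered by ISO alone and 8 raised and 1 lowered by ISO under inhibitors (3 and 7, and 4 and 1, on total counts), beside 26.8% and 25%, and 29.4% and 28.3%, of all genes. As all genes of a cluster were measured in the same samples, they are not replicates.

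**Figure D5:**
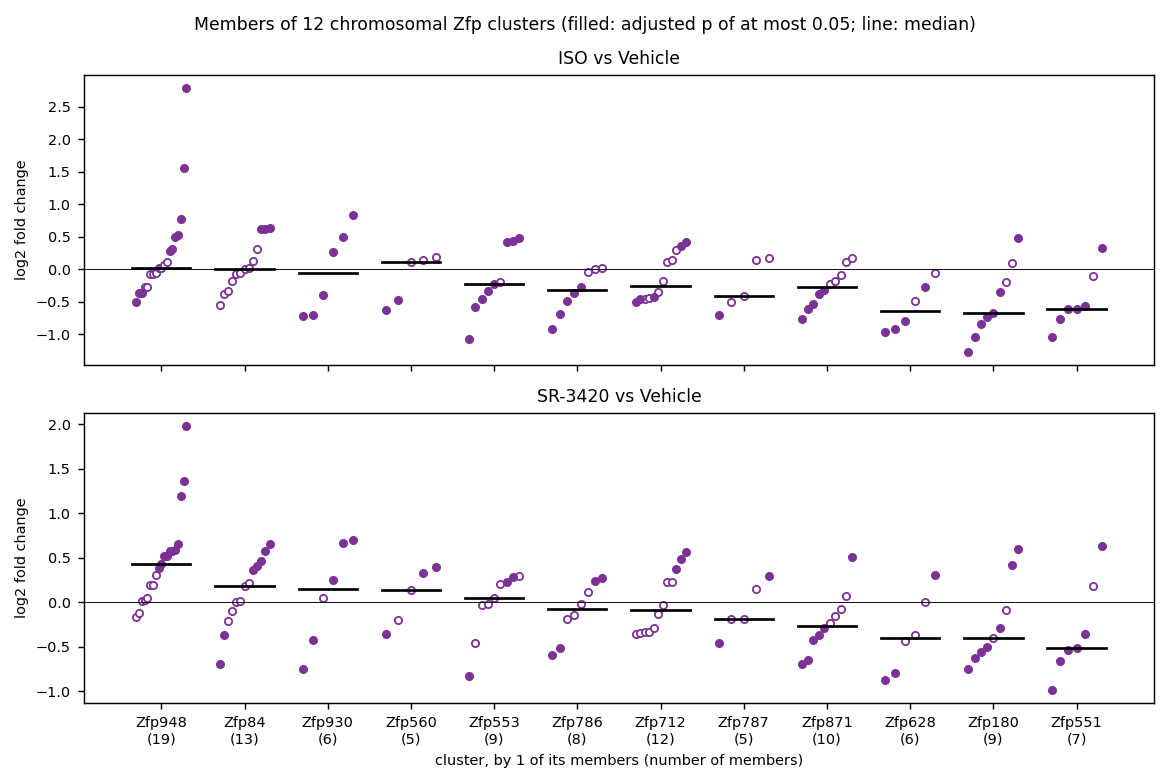
Log2 fold change of the members in each of 12 clusters of Zfp genes, for ISO and for SR-3420 against Vehicle. Filled points were called at an adjusted p of at most 0.05, open points were not, and lines give the median of a cluster. In the Zfp948 cluster on chromosome 17 all 11 filled points for SR-3420 lie above 0.

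Promoters in the Zfp948 cluster share stretches of sequence. The 9-base word found in more of them than any other was AGTGGGAGG, picked by its frequency in these 19 promoters, so that its frequency there is no test. It was found within 250 bases upstream, on the strand of the gene, in 7 of 19 (36.8%), in 1 of 243 other members (0.412%) and in 71 of 12137 other genes tested (0.585%). The word is shown in capitals with its surroundings, from the mm9 genome.
Zfp948 (chr17:21703782-21703860, plus strand): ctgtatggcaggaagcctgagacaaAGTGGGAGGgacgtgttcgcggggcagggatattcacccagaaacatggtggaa
Zfp51 (chr17:21587204-21587282, plus strand): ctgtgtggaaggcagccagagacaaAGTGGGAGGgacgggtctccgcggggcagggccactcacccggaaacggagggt
Zfp52 (chr17:21672446-21672502, plus strand): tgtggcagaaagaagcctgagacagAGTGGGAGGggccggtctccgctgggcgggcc
Zfp53 (chr17:21625823-21625901, plus strand): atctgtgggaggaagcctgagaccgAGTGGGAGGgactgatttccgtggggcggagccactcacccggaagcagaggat
Zfp820 (chr17:21982770-21982848, minus strand): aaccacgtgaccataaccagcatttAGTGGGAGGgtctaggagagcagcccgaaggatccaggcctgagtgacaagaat
Zfp945 (chr17:23004272-23004350, minus strand): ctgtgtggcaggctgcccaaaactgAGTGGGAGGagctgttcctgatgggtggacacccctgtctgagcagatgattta
Zfp946 (chr17:22560997-22561075, plus strand): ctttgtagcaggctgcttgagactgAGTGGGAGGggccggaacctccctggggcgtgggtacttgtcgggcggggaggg
Of the 25 bases before the word, 21 in Zfp51, 19 in Zfp53, 17 in Zfp945, 17 in Zfp946 and 15 in Zfp52 were the same as in Zfp948, and 6 in Zfp820. In Zfp948 the word occurs 3 times, at -203, -107 and -89, and in Zfp52 once, at -32. Of the 7 genes with it, 6 were raised by SR-3420 (median 0.66), Zfp946 being the exception, and of the 12 without it 5 (median 0.25), where 26% of all genes were raised. The 6 include Zfp52 and Zfp820, which the level rule may have admitted through the samples where they are high. With ISO, 4 of the 7 were raised and 2 lowered (median 0.29), and 3 of the 12 were raised and 1 lowered (median -0.02), beside 26.8% and 25% of all genes. The difference was not tested.

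Members with and without the KRAB pattern were counted apart, as a KRAB box is tied to a described silencing role. The counts depend on the pattern used, and the others may include KRAB genes that it missed. ISO raised 30 (22.1%) and lowered 45 (33.1%) of the 136 KRAB members, and raised 46 (37.7%) and lowered 37 (30.3%) of the 122 others, beside 26.8% and 25% of all genes. SR-3420 raised 42 (30.9%) and lowered 24 (17.6%) against 55 (45.1%) and 21 (17.2%), beside 26% and 25.4% of all genes. On total counts the KRAB members gave 12 and 77 with ISO and 24 and 34 with SR-3420, and the others 13 and 61, and 31 and 32. KRAB members had lower counts, and the part of this in the difference was not tested. Single KRAB proteins with known targets, chosen outside the naming rule, changed by less than 2-fold: Zfp809, which silences murine leukaemia proviruses, -0.44 (adjusted p = 0.018) with ISO, Zfp568, a repressor of Igf2, -0.06 (adjusted p = 0.591), and Zfp445, which protects genomic imprints, 0.36 (adjusted p = 0.000294).

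Of the 25 listed genes of the silencing machinery used by KRAB proteins, all were tested. ISO raised 4 and lowered 8, and SR-3420 raised 7 and lowered 5 (0 and 17, and 3 and 9, on total counts), beside 26.8% and 25% of all genes with ISO and 26% and 25.4% with SR-3420. Trim28 and Setdb1 themselves had changes of -0.10 and -0.12 with ISO, which were not called. Atf7ip, a partner of Setdb1, fell by 0.62 on the log2 scale with ISO and by 1.06 with ISO under inhibitors. With inhibitors alone and with inhibitors and SR-3420 none of the 25 was called. The 57 tested genes named Zbtb, Zscan or Zkscan, further C2H2 families, gave 18 higher and 15 lower with ISO and 25 and 15 with SR-3420. With ISO these were 31.6% and 26.3%, beside 26.8% and 25% of all genes. With SR-3420 they were 43.9% and 26.3%, beside 26% and 25.4% of all genes and 37.4% and 17.6% of the Zfp members. On total counts the numbers of these genes were 9 and 30 with ISO, and 19 and 16 with SR-3420.

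Members with a described part in adipocytes were listed separately, and 7 of the 8 on the list could be tested, while Zfp638 was not analysed here. ISO raised 3 (Zfp516, Zfp395 and Zfp407) and lowered 2 (Zfp521 and Zfp217), and SR-3420 raised 2 and lowered 3. Over all genes the shares were 26.8% and 25% with ISO and 26% and 25.4% with SR-3420. With 7 genes these counts do not set the list apart. Zfp521 was scarce, at 4.80, 5.02 and 4.85 CPM with Vehicle, 1.46, 2.69 and 2.00 with ISO and 5.51, 5.65 and 4.35 with SR-3420. ISO samples were below all others of these, and with inhibitors ISO again gave the lowest values (2.07, 2.65 and 2.08 CPM). Its changes were -1.27 ± 0.22 (SE, adjusted p = 3.84e-05) with ISO, 0.07 (adjusted p = 0.782) with SR-3420 and -1.55 ± 0.20 with ISO under inhibitors. Zfp30 had 10.04, 11.1 and 10.3 CPM with Vehicle, 13.3, 9.82 and 11.03 with ISO, 8.08, 5.49 and 5.92 with SR-3420 and 25.5, 23.9 and 22.2 with inhibitors and ISO. It was lowered by SR-3420 (-0.69 ± 0.15) and raised by ISO under inhibitors (1.05 ± 0.13). Without inhibitors the ISO and Vehicle samples overlapped, with a change of 0.13 (adjusted p = 0.483).

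The changes of the other listed genes were smaller. Zfp217 fell with both treatments (-0.62 with ISO, -0.38 with SR-3420). Zfp395 was higher with ISO (0.21) and lower with SR-3420 (-0.38), and Zfp407, a cofactor in PPARγ signalling, was higher with both (0.23 and 0.43). On total counts Zfp395 and Zfp407 had the opposite sign with ISO, -0.09 and -0.08. Zfp467, which favours adipogenesis, was under the threshold at 1.26 ± 0.30 CPM with Vehicle (SD, n = 3) and is no member. It was lower with ISO under inhibitors, -1.63 ± 0.42 (SE).

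Not all members act on DNA. Besides Zfp593, which passed 2-fold with SR-3420, 3 members with described roles in RNA or translation are given here, chosen outside the naming rule. Zfp598, which marks collided ribosomes, had 0.30 (adjusted p = 0.00139) with ISO and 0.44 (adjusted p = 2.2e-05) with SR-3420. Zfp326, a splicing factor, had 0.46 (adjusted p = 0.00201) and 0.71 (adjusted p = 1.82e-05), and its SR-3420 interaction was -0.75 (adjusted p = 0.00166), or -0.77 without the shallow library. Zfp106, an RNA-binding protein and by raw level the highest member, had 0.66 (adjusted p = 8.28e-08) with ISO and 0.84 (adjusted p = 1.21e-09) with ISO under inhibitors. Of the other members with the highest levels per length, Zfp91 had 0.40 (adjusted p = 0.000383) and Zfp664 0.00 (adjusted p = 0.983) with ISO. These ISO changes are those of the TMM scale. Scaling by total counts shifted the median ISO change of all genes by -0.31. Zfp91 then had 0.09 and was not called.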

How the data were processed

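RNA from mouse BAT-LgT brown adipocytes was sequenced by the authors from TruSeq libraries. Per the labels and the study, reads were aligned to mm9 with STAR 2.4.2a (hg19 is listed too), summarised with HOMER (a version is stated only for merging peaks), keeping 1 read per position and length, which can lower the counts of abundant genes, and counted per RefSeq gene with iRNA-seq. Use of strand is not stated, so reads of antisense genes cannot be told apart. The deposited table holds raw counts of 20295 genes in 18 samples, with 0 columns of other samples. Starts count from 0 in it and from 1 here.

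The analysis used edgeR 4.0.16 under R 4.3.3. Low genes were removed by filterByExpr (minimum count 10, total 15; 12156 genes left), libraries were scaled by TMM, and counts were fitted in 1 quasi-likelihood model with a mean per group over all 18 samples (glmQLFit, glmQLFTest). Benjamini-Hochberg adjustment ran over these genes, and a call is an adjusted p of at most 0.05, with a log2 fold change of at least 1 where 2-fold is stated. Standard errors are the log2 fold change over the root of its F statistic. Members and lists were chosen with earlier results of these data known. The naming rule takes Zfp948, the adipocyte list, the 3 highest members per length, those at the threshold and, per comparison and direction, up to 4 members with the largest change past 2-fold, filled up with other calls, if their average log2 CPM reached 3 and all 3 same-numbered pairs moved one way. Groups and replicate numbers come from the sample titles.

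Whether numbers 1 to 3 pair the samples was checked by correlating deviations from group means, which averaged -0.0118, 0.150 and 0.190. Pairs over 0.1 were 1, 12 and 15 of 15, so numbers 2 and 3 share some variation. As no label marks a shared batch, the main model held no pairing and a replicate block was an alternative. KRAB boxes and fingers were found by pattern in translated GENCODE M1 transcripts in place of the RefSeq proteins that had been planned. In counts simulated for ISO versus Vehicle, 181 of 200 genes changed 2-fold were recovered (90.5%) among 12041, with 10 false calls. In the data many more genes were called, 26.8% higher and 25% lower. The simulation therefore does not give the rate of false calls in that setting, or the effect of the scaling. Alternatives were DESeq2 1.42.0, RLE factors, total counts, other filters and member thresholds, the groups compared alone, a replicate block and single samples left out. Depth covers counting error only, as no molecular identifiers are described.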

Additional observations from a re-analysis of the deposited data

Results flagged for a closer look

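The members below responded differently with and without lipase inhibitors, by edgeR's test of the interaction, the log2 fold change with inhibitors minus that without (± SE). They are the up to 4 members per direction of the naming rule, and each had an adjusted p of at most 0.05.

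For ISO, the positive differences were those of Zfp710 (1.12 ± 0.15), Zfp324 (0.98 ± 0.18), Zfp30 (0.92 ± 0.20) and Zfp235 (0.91 ± 0.24), and the negative ones those of Zfp655 (-1.17 ± 0.12), Zfp945 (-1.10 ± 0.21), Zfp934 (-0.94 ± 0.27) and Zfp948 (-0.86 ± 0.17). Zfp710, raised by ISO under inhibitors, and Zfp945, lowest there, moved away from Vehicle under inhibitors, whereas Zfp655 and Zfp948 moved less than without them.

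For SR-3420, the positive differences were those of Zfp324 (0.95 ± 0.18), Zfp503 (0.92 ± 0.18), Zfp784 (0.87 ± 0.18) and Zfp174 (0.87 ± 0.20). The negative ones were those of Zfp948 (-1.98 ± 0.17), Zfp52 (-1.61 ± 0.30), Zfp655 (-1.44 ± 0.12) and Zfp593 (-1.24 ± 0.29). In each of these 8 the change with SR-3420 under inhibitors was smaller in size than that without, and the shallow library, Lipase Inh. + SR-3420 replicate 2, is among the samples compared. Without it the differences were 0.89, 1.00, 0.82 and 0.77 for the positive and -1.91, -1.65, -1.44 and -1.22 for the negative ones, in the same order, all at an adjusted p of at most 0.05. What underlies these differences was not tested. Groups of 3 samples were not searched for single samples that stand apart.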

How the results depend on the processing

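Scaling mattered most. On total counts, ISO versus Vehicle gave 25 members higher and 142 lower, SR-3420 versus Vehicle 55 higher, inhibitors alone 0, ISO under inhibitors 35 and 87, SR-3420 under inhibitors 0, ISO versus SR-3420 8 and 127, and negative interactions 11 for ISO and 27 for SR-3420. Zfp395 and Zfp407 reversed their ISO change there (-0.0933 and -0.0750). With only the groups compared, no member was higher with inhibitors alone. With a replicate block, 7 members were higher with SR-3420 under inhibitors, and no other count of calls in 1 direction moved by over 1.5 times. Over all genes the block raised the calls in every comparison, from 111 to 269 for inhibitors alone and from 3609 to 4376 for ISO versus SR-3420. Same-numbered samples were closest in 12 of 18 cases, so a block is a hint from the data only.

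With single samples left out, members higher and lower ran from 61 to 76 and 66 to 85 (ISO), 80 to 100 and 35 to 48 (SR-3420), 0 to 1 and 0 to 0 (inhibitors alone), 69 to 80 and 40 to 50 (ISO under inhibitors), 1 to 7 and 0 to 0 (SR-3420 under inhibitors), 11 to 17 and 41 to 73 (ISO versus SR-3420), 43 to 57 and 14 to 24 (ISO interaction) and 18 to 28 and 36 to 49 (SR-3420 interaction). Of 3650 values of named members under alternatives, 3496 kept direction and call, 152 lost the call and 2 reversed. Small changes of members near 5 CPM are limited by depth.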
